A study of Mus musculus with 55 samples.

Results

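Female mice in proestrus were compared by genotype, with 4 Cnih3 knock-out (KO) mice (12_4, 12_5, 14_1 and 14_2) set against 5 wild-type (WT) mice (2_3, 20_2, 4_1, 5_4 and 8_2). These 9 mice were all those labelled proestrus (P) among the 55 mice of the series, and each gave 1 library from the dorsal hippocampus. The other 46 mice were KO and WT females in metestrus (9), diestrus (12) and estrus (13) and KO and WT males (12). The stage was read from cells of a vaginal lavage, where proestrus is marked by nucleated epithelial cells. All mice had a C57/BL6j background, and the KO mice came from 1 line in which every cell lacks exon 4 of Cnih3. The KO mice were 13 to 14.57 weeks old and the WT mice 12 to 18.71 weeks old. By the study's sample table, all 4 KO mice and WT 8_2 had parents of the Cnih3 line, while the other 4 WT mice had parents of a separate WT B6 mating, so genotype and parents differed in only 1 mouse and can hardly be told apart. WT 8_2 and WT 4_1 were also the only proestrus mice with an RNA integrity number under 8 in that table. The KO mice carry 2 first numbers (12 and 14) and the WT mice 5, and what this number marks is not given in the sources used here. The question was what the loss of Cnih3 changes in hippocampal RNA at this stage.

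CNIH3 (cornichon homolog 3) is an auxiliary protein of AMPA receptors, the main fast glutamate receptors of the brain, and affects how they reach the synapse and how they open and close. Proestrus is the stage that leads up to ovulation, in which ovarian steroid hormones surge, and dendritic spines of hippocampal pyramidal neurons are known to vary over the cycle. The deleted exon 4 lies at chr1:181449970-181450082 of GRCm38 on the plus strand, inside the gene at 181352628 to 181460641, and is an internal exon of a transcript with 6 exons. It is shown because its loss defines the KO group and because its length of 113 bases leaves a remainder of 2 after division by 3, which shifts the reading frame of the exons after it. It reads, 5′ to 3′ and in lower case throughout since no part is singled out:
Cnih3 exon 4: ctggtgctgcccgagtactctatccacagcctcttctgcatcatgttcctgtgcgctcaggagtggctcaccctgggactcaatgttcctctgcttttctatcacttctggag

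Reads from the other exons of Cnih3 can still be counted in KO mice, so the gene count is no full check of the genotype. In CPM (read counts scaled to a common library size with TMM factors), Cnih3 was at 32.8, 31.3, 28.04 and 47.8 in KO mice 12_4, 12_5, 14_1 and 14_2. It was at 33.8, 21.6, 48.8, 62.5 and 52.9 in WT mice 2_3, 20_2, 4_1, 5_4 and 8_2, and values of other genes follow the same order. The groups overlapped, with WT 20_2 lowest of all 9 mice. The log2 fold change, KO minus WT here and for every gene, was -0.36 (SE 0.19), with a false discovery rate (FDR) of 0.395 by limma.

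Totals were 32817017 to 57963784 counts per KO library and 25881295 to 62013024 per WT library, and the quality weights that limma estimated from the data were 0.576 to 1.94 in KO mice and 0.672 to 1.89 in WT mice, except for 0.194 in WT 8_2. Pairwise correlations of log2 CPM among the 9 libraries were 0.948 to 0.988, a description over genes. Markers of the hippocampal fields were present in every mouse. The 8 dentate granule cell genes summed to 335 to 411 CPM in KO mice and 334 to 408 in WT mice, and the 9 CA2 and CA3 genes to 702 to 841 and 802 to 927. Choroid plexus RNA varied most, from 73.1 to 2280 CPM over 13 genes in KO mice and from 57.0 to 1470 in WT mice. Transthyretin (Ttr), the abundant carrier protein made there, spanned 41.9 to 2098 CPM in KO and 29.4 to 1317 in WT mice. The 15 mature oligodendrocyte genes summed to 4750 to 7560 CPM in KO mice and 4530 to 8140 in WT mice. Only 2 of these 15 had a log2 fold change above 0, and the median was -0.17. At an unadjusted p under 0.05 in limma, 2 were lower and 0 higher, against 7.87% and 5.82% of all genes tested. Of the pituitary list 4 of 9 genes were measurable, at 193 to 385 CPM in KO mice and 133 to 202 in WT mice, with Prl (prolactin) at 34.1 to 140 and 13.6 to 55.2. None of the genes in these 5 lists had an FDR under 0.05, and their part in the results was not tested except where a covariate is named. In bulk tissue, fewer cells of a type and less RNA per cell cannot be told apart.

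In proestrus, KO mice had lower RNA of Atf4, the folate enzyme gene Mthfd2, the innate immune gene Aim2 and the nucleolin gene Ncl. RNA of the receptor subunit genes Grin2c and Gabra2 and of the sodium channel gene Scn9a was higher. Single mice overlapped for Mthfd2, Grin2c and Gabra2, and all these calls were by limma with quality weights. Of the 16168 genes tested, 51 (0.315%) were differentially expressed (DEGs, FDR under 0.05 by limma with sample quality weights). Of these 42 were lower in KO mice (0.260% of the genes tested) and 9 higher (0.0557%). Absolute log2 fold changes of the DEGs ran from 0.26 to 1.59, with a median of -0.73 for the lower and 0.98 for the higher genes, and 16 of the lower and 4 of the higher genes passed a log2 fold change of 1. In 20 of the 42 lower genes all 4 KO mice were below all 5 WT mice, compared with 163 of all genes tested (1.01%). In 3 of the 9 higher genes all KO mice were above all WT mice, compared with 89 of all genes tested (0.550%). The lower DEGs had a median level of 42.7 CPM and the higher DEGs one of 2.94 CPM.

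These calls rested on the quality weights and on single mice. The edgeR quasi-likelihood test called 0 genes with an FDR under 0.05 (685 at an unadjusted p under 0.05), DESeq2 called 0 (707) and limma without quality weights called 0 (641), compared with 2214 at an unadjusted p under 0.05 with the weights. Of these 2214 genes 1273 were lower in KO mice (7.87% of the genes tested) and 941 higher (5.82%). Without weights the log2 fold changes were -0.44 for Atf4, -0.61 for Mthfd2, -1.23 for Aim2, -0.84 for Strap and -1.33 for Tsen34, compared with -0.44, -0.74, -1.35, -1 and -1.54 with them. Grin2c, Gabra2 and Scn9a were at 0.97, 0.58 and 1.08 without weights, compared with 1.29, 0.93 and 1.21 with them. With WT 8_2 as the lone WT mouse of proestrus, Grin2c, Gabra2 and Scn9a were at 0.09, 0.23 and 0.68. With age in weeks as a covariate limma called 0 genes (1312 at an unadjusted p under 0.05). Without KO 12_4 or without KO 12_5, the KO mice with the highest weights, it also called 0 (1572 and 2112 at an unadjusted p under 0.05). It called 33 genes without KO 14_1, 9 without WT 2_3, 11 without WT 20_2, 28 without WT 4_1 and 330 without WT 5_4. Without WT 8_2 it called 130 genes, of which 50 were among the 51. The bar plot of calls by setting gives every count.

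**Figure D1:**
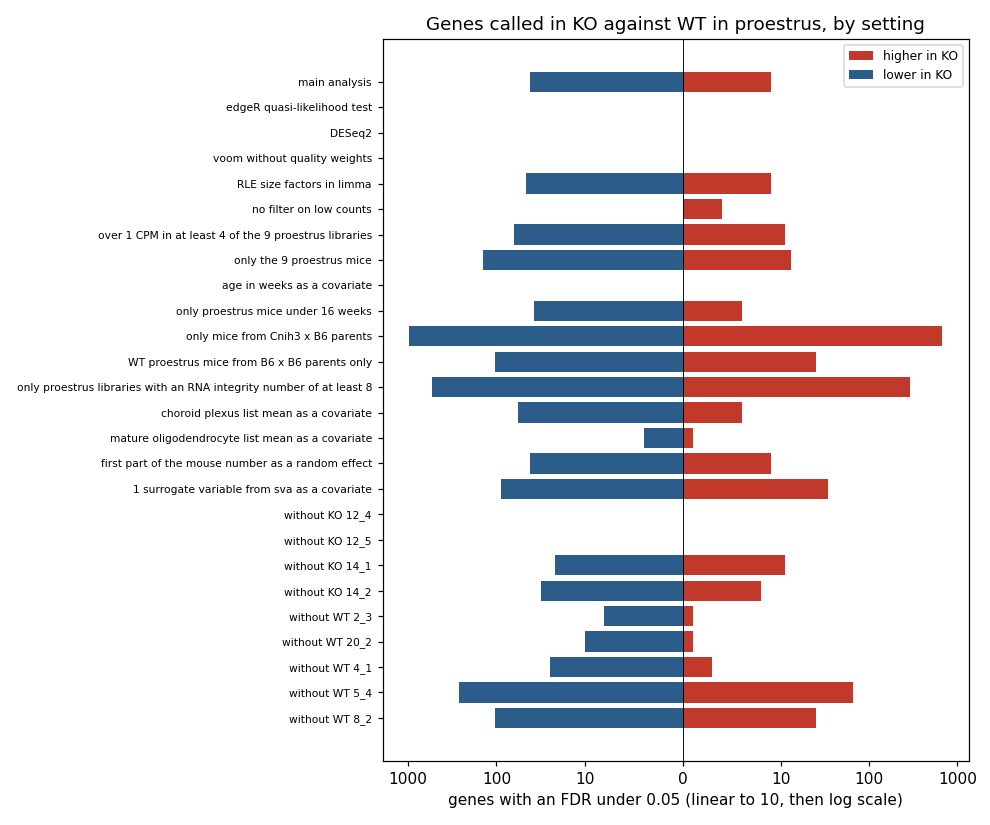
Number of genes with an FDR under 0.05 in KO against WT in proestrus under each setting, with genes lower in KO drawn to the left (blue) and genes higher in KO to the right (red) on an axis that is linear to 10 and logarithmic beyond. The main analysis has 42 lower and 9 higher genes, and 6 settings have a count of 0.

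The most repeatable differences were in Atf4, Mthfd2, Aim2, Ncl and Cryba2, which were lower in KO mice at every stage and in males. Each of these 5 of the 42 lower DEGs (11.9%) had a lower level and an unadjusted p under 0.05 in all 4 other comparisons of KO with WT mice, in metestrus, diestrus, estrus and males, which share no mouse with proestrus. Over all genes tested 45 of 16168 (0.278%) did so. Among the 9 higher DEGs 0 were higher with an unadjusted p under 0.05 in all 4, and 20 of all genes tested (0.124%) were. A log2 fold change below 0 in all 4 other comparisons was found for 12 of the 42 lower DEGs (28.6%) and for 2875 of all genes tested (17.8%). Outside proestrus all KO mice again had parents of the Cnih3 line, against 10 WT mice, while 12 WT mice came from the separate mating. Median CPM in these 10 and 12 WT mice was 146 and 144 for Atf4 and 21.5 and 22.1 for Mthfd2. For Ncl it was 470 and 433, and for Aim2 2.80 and 4.24. The part of the parents was not tested. With WT 8_2 as the lone WT mouse of proestrus, log2 fold changes there were -0.48 (Atf4), -0.35 (Mthfd2), -1.30 (Aim2), -0.26 (Ncl) and -1.81 (Cryba2).

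Atf4 (ENSMUSG00000042406, chr15:80255184-80257541, GRCm38, plus strand) encodes the transcription factor that raises amino acid synthesis and transport genes when translation is slowed by stress. It was at 102, 118, 110 and 121 CPM in the KO mice and at 146, 145, 150, 166 and 157 CPM in the WT mice, with no overlap between the groups. Its log2 fold change was -0.44 (SE 0.10, FDR = 0.0357 by limma). In the other comparisons it was -0.58 in metestrus (FDR = 0.00052), -0.36 in diestrus (FDR = 0.317), -0.48 in estrus (FDR = 0.000949) and -0.43 in males (FDR = 0.113), all by limma. The size in proestrus lay inside this range, and the interaction of genotype with proestrus was 0.03 (SE 0.11, FDR = 0.897 by limma). The KO group means were 102 to 113 CPM over the 5 groups and the WT means 132 to 153 CPM. Single mice of the whole series overlapped, at 85.9 to 126 CPM in KO and 98.1 to 191 CPM in WT mice. WT diestrus mice alone ran from 98.1 to 177.5 CPM.

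Mthfd2 (ENSMUSG00000005667, chr6:83305691-83325908, GRCm38, minus strand), a mitochondrial enzyme of the folate cycle and a target of ATF4, had the smallest FDR of all genes. Its level was 15.2, 13.5, 20.1 and 12.8 CPM in the KO mice and 29.6, 22.4, 25.4, 22.5 and 19.2 CPM in the WT mice. KO 14_1 lay just above WT 8_2, and the other KO mice lay below all WT mice. The log2 fold change was -0.74 (SE 0.13, FDR = 0.00722 by limma), against -0.38, -0.28, -0.47 and -0.39 in metestrus, diestrus, estrus and males, and the interaction did not pass the test (-0.37, SE 0.15, FDR = 0.152 by limma).

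Aim2, a cytosolic sensor of double-stranded DNA in the innate immune system, was at 1.68, 1.11, 2.31 and 1.27 CPM in the KO mice and at 3.80, 3.56, 4.12, 3.15 and 3.61 CPM in the WT mice. The groups were apart, and KO minus WT was -1.35 on the log2 scale (SE 0.26, FDR = 0.0230 by limma). It was the 1 DEG of 51 whose values did not overlap over the whole series, with 28 KO mice at 0.734 to 2.47 CPM and 27 WT mice at 2.49 to 5.96 CPM. Aim2 (chr1:173350879-173466040, GRCm38, plus strand) lies 7.89 Mb from Cnih3 on the same chromosome. Of the 141 genes tested within 10 Mb of Cnih3, Aim2 alone was a DEG, and the median log2 fold change of these genes was 0.03. Outside proestrus, Aim2 was at 2.49 to 4.41 CPM (median 2.80) in the 10 WT mice with parents of the Cnih3 line and at 3.22 to 5.96 CPM (median 4.24) in the 12 WT mice from the separate mating, and the part of the parents in the difference was not tested.

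Ncl encodes nucleolin, which acts in ribosomal RNA transcription and ribosome assembly. It was at 333, 368, 357 and 368 CPM in the KO mice and at 463, 488, 439, 416 and 428 CPM in the WT mice. All KO mice were lower, by a log2 fold change of -0.34 (SE 0.07, FDR = 0.0357 by limma), compared with -0.18 to -0.24 in the other 4 comparisons. Cryba2, a crystallin gene, was expressed at a low level, at 0.397, 0.419, 0.834 and 0.868 CPM in the KO mice and 1.24, 0.885, 1.48, 1.26 and 1.74 CPM in the WT mice. These ranges did not overlap either, and the log2 fold change was -1.37 (SE 0.30, FDR = 0.0357 by limma).

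**Figure D2:**
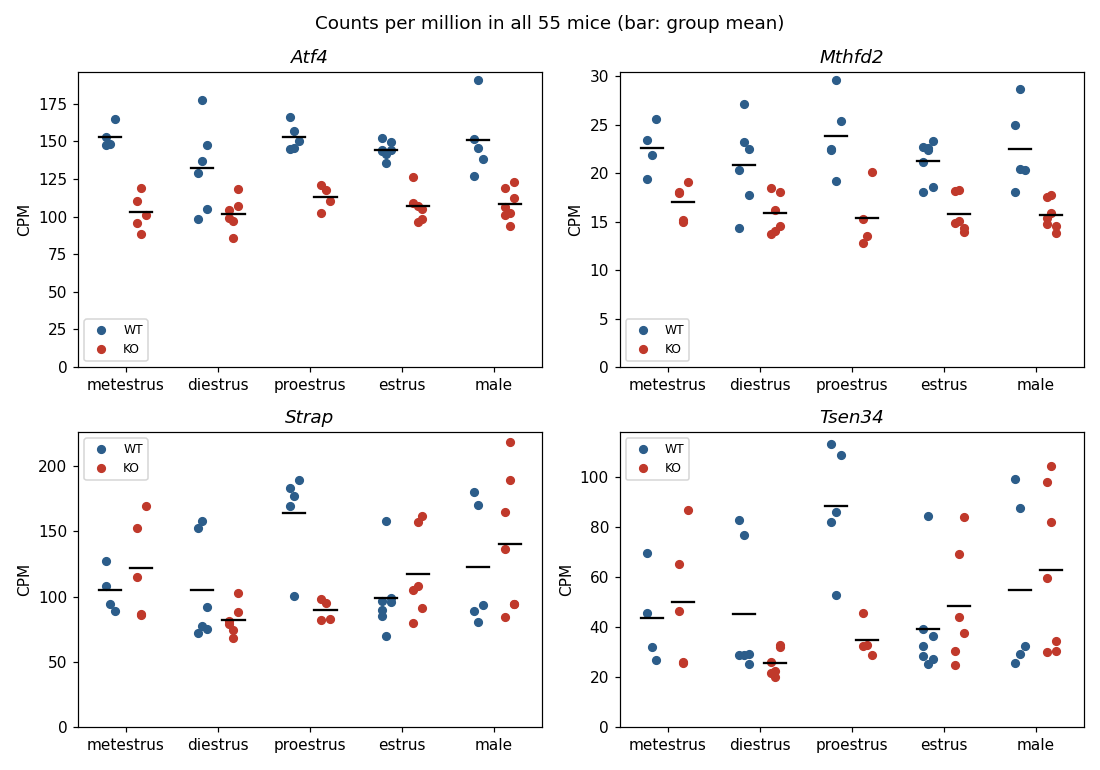
CPM of Atf4, Mthfd2, Strap and Tsen34 in all 55 mice by stage and in males, with WT mice in blue, KO mice in red, 1 point per mouse and a bar at each group mean. Atf4 group means are 102 to 113 in KO and 132 to 153 in WT mice, while single mice overlap at 85.9 to 126 and 98.1 to 191. Strap reaches 158 CPM or more in mice of both genotypes outside proestrus.

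Amino acid and stress response genes known as ATF4 targets made a list of 16, of which 15 were tested. The list was chosen with earlier results of these data known, so its counts are a description. In this list, Atf4 itself included, 2 members were lower and 0 higher with an FDR under 0.05 (Mthfd2 and Atf4), 5 were lower at an unadjusted p under 0.05, and the median log2 fold change was -0.16. Over all genes tested 0.260% were lower DEGs, 7.87% were lower at an unadjusted p under 0.05, and the median was 0.00. Asns, which makes asparagine, was at 157, 169, 201 and 166 CPM in the KO mice and at 236, 284, 199, 215 and 165 CPM in the WT mice. WT 4_1 and 8_2 lay within the KO range, and the difference did not pass the test (log2 fold change -0.38, SE 0.12, FDR = 0.127 by limma). Psat1 and Phgdh, enzymes of serine synthesis, had values of -0.16 (SE 0.09) and -0.21 (SE 0.12), and Ddit3, the gene of the stress factor CHOP, had 0.06 (SE 0.11), with FDRs of 0.385, 0.413 and 0.855 by limma. Cars, which charges transfer RNA with cysteine and was not on the list, was a DEG at 31.9, 31.5, 34.9 and 28.9 CPM in the KO mice and 44.1, 49.7, 42.4, 46.7 and 32.6 CPM in the WT mice. Its log2 fold change was -0.47 (SE 0.09, FDR = 0.0230 by limma), and WT 8_2 was again inside the KO range.

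ATF4 acts with C/EBP proteins at short composite elements. One form of such an element, TGATGNAA on either strand, was looked for in RefSeq promoters of GRCm38.p6 (250 bases before to 50 after a listed start). For genes of the list only the first listed promoter was used, whereas the share over all promoters counts every promoter listed. The shares may therefore count unlike units. It was in 5 of the 15 promoters found for the list (33.3%) and in 1304 of all 32851 promoters (3.97%). Neither Mthfd2 nor Atf4 had a match in this window. The Mthfd2 window, chr6:83317555-83317854, lay inside the gene interval given above. The 5′ end of that interval on the minus strand, at 83325908, was not searched. Stretches are shown for Asns and for Chac1 and Nupr1, the other members with a match and an unadjusted p under 0.05, chosen after their values were seen, with the 8 matching bases in capitals, written 5′ to 3′ along the strand of the gene. A match is a description of letters and not a site in use.
Asns, chr6:7693205-7693252, minus strand: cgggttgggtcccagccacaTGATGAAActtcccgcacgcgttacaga
Chac1, chr2:119351029-119351076, plus strand: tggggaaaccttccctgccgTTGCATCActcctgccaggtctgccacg
Nupr1, chr7:126625553-126625600, minus strand: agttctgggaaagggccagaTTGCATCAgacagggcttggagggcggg

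Log2 fold changes were -0.63 (SE 0.17, FDR = 0.0843 by limma) for Chac1, which breaks down glutathione, and -0.42 (SE 0.21, FDR = 0.358 by limma) for Nupr1, a small stress-induced nuclear protein.

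A larger set of the lower DEGs behaved differently, with high levels in the 4 WT mice from the separate B6 mating and levels near those of KO mice in WT 8_2. Among the 42 lower DEGs, the 4 other WT mice were all above all KO mice in 39, compared with 882 of all genes tested (5.46%), whereas WT 8_2 was at or below the highest KO mouse in 21 and was the lowest WT mouse in 36. Among the 9 higher DEGs the 4 other WT mice were all below all KO mice in 6, compared with 591 of all genes tested (3.66%), WT 8_2 was at or above the lowest KO mouse in 5 and was the highest WT mouse in 8. These counts are a description, since the DEGs were called with a weight of 0.194 for WT 8_2, which favours genes that separate the other WT mice from the KO mice. WT 8_2 was the library with the lowest weight, with an RNA integrity number under 8 and the only WT proestrus mouse of the Cnih3 line. Within this 1 mouse these 3 properties cannot be told apart. WT 4_1, the other mouse with an RNA integrity number under 8, had a weight of 1.89. It was at 189 CPM for Strap, 109 for Tsen34, 400 for Csnk1a1 and 61.2 for Med9. The part of RNA integrity was not tested.

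Strap (ENSMUSG00000030224, chr6:137735078-137751932, GRCm38, plus strand), a protein of the complex that assembles spliceosomal particles, was at 82.3, 94.9, 82.6 and 98.3 CPM in the KO mice and at 177, 183, 189, 169 and 100 CPM in the WT mice. The 4 WT mice other than 8_2 were far above the KO mice, and WT 8_2 was just above them. KO minus WT was -1 on the log2 scale (SE 0.23, FDR = 0.0369 by limma). Tsen34, a subunit of the endonuclease that cuts introns from transfer RNA, was at 32.5, 33.0, 29.1 and 45.6 CPM in the KO mice and at 85.9, 82.03, 109, 113 and 52.9 CPM in the WT mice. Its log2 fold change was -1.54 (SE 0.36, FDR = 0.0394 by limma). As for Strap, WT 8_2 was the lowest WT mouse and lay above all KO mice. Lsm2, a core protein of the U6 small nuclear RNA particle, had 8.71, 6.66, 7.42 and 8.58 CPM in the KO mice and 19.9, 18.6, 24.97, 25.9 and 10.1 CPM in the WT mice, a log2 fold change of -1.54 (SE 0.36, FDR = 0.0394 by limma). Of the 22 spliceosomal core proteins tested Lsm2 alone was a DEG, and their median log2 fold change was 0.02.

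Other lower DEGs for RNA and chromatin were the messenger RNA cleavage factor gene Cstf2t (-0.38, SE 0.08), the splicing regulator Rbmx (-0.39, SE 0.08), the helicase gene Ddx25 (-0.38, SE 0.09), the nuclear pore gene Seh1l (-0.32, SE 0.07), the Mediator subunit gene Med9 (-1.59, SE 0.39), the histone acetyltransferase gene Kat7 (-0.46, SE 0.11) and the linker histone gene H1f0 (-0.35, SE 0.08), given as log2 fold changes with FDRs of 0.0357 to 0.0496 by limma. Med9 was at 21.8, 20.0, 13.8 and 18.8 CPM in the KO mice and at 56.2, 53.6, 61.2, 66.7 and 24.2 CPM in the WT mice. WT 8_2 was close to the KO mice and the other WT mice were far above them.

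Genes of mitochondrial proteins among the lower DEGs were Mff, Auh, Pgam5, Mrpl3 and Decr1. Mff, which recruits the fission protein DRP1 to the outer membrane, was at 112, 119, 91.4 and 134 CPM in the KO mice and at 208, 225, 260, 273 and 149 CPM in the WT mice, without overlap. Its log2 fold change was -1.06 (SE 0.25, FDR = 0.0457 by limma). Auh, an enzyme of leucine breakdown, Pgam5, a phosphatase of the mitochondrial membrane, and Mrpl3, a mitochondrial ribosomal protein, were at log2 fold changes of -1.18 (SE 0.29), -1.21 (SE 0.30) and -1.05 (SE 0.26), and Decr1, an enzyme of fatty acid oxidation, of -0.54 (SE 0.12), with FDRs of 0.0394 to 0.0482 by limma. Pgam5 was at 45.8 CPM in WT 8_2 and at 89.8 to 95.4 CPM in the other WT mice, against 34.8 to 46.2 CPM in the KO mice. The 114 genes of the respiratory chain and ATP synthase did not share this direction. None was a DEG in limma, and their median log2 fold change was 0.16. At an unadjusted p under 0.05, 26 were higher and 2 lower, against 5.82% and 7.87% of all genes tested. Their sums overlapped, at 27600 to 38300 CPM in KO mice and 26300 to 42600 CPM in WT mice. All 13 mitochondrially encoded messenger RNAs had log2 fold changes above 0, from 0.22 to 0.83, with 0 DEGs in limma and 2 at an unadjusted p under 0.05. Over all genes tested 8100 of 16168 were above 0. The sums of the 13 overlapped, at 18900 to 34000 CPM in KO mice and 9870 (20_2) to 30600 CPM (8_2) in WT mice. Their median log2 fold change was 0.35 in proestrus, and -0.51, -0.23 and -0.59 in metestrus, diestrus and estrus.

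Fkbp4 encodes FKBP52, a co-chaperone that binds HSP90 in complexes with steroid receptors. It was at 112, 111, 96.9 and 116 CPM in the KO mice and at 167, 154, 200, 210 and 115 CPM in the WT mice. WT 8_2 lay within the KO range, and the log2 fold change was -0.72 (SE 0.17, FDR = 0.0394 by limma). Ptges3-ps, a processed pseudogene of another HSP90 co-chaperone, was lower by a log2 fold change of -1.01 (SE 0.20, FDR = 0.0230 by limma), but reads of such a copy and its parent gene may not be told apart. Of the 24 genes in the list of heat shock and endoplasmic reticulum chaperones 0 were DEGs in limma (2 higher and 2 lower at an unadjusted p under 0.05), with a median log2 fold change of 0.01. Hsp90aa1 and Hsp90ab1, the HSP90 genes themselves, had values of 0.15 (SE 0.07) and 0.03 (SE 0.07).

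Csnk1a1, a casein kinase of Wnt signalling and the circadian clock, was at 238, 244, 208 and 255 CPM in the KO mice and at 405, 426, 400, 396 and 248 CPM in the WT mice (log2 fold change -0.75, SE 0.18, FDR = 0.0394 by limma). The 4 WT mice other than 8_2 differed by little among themselves and WT 8_2 lay inside the KO range. Plk5, a polo-like kinase gene expressed in the brain, was at 15.3, 20.1, 18.4 and 23.9 CPM in the KO mice and at 49.2, 38.1, 46.3, 52.4 and 29.2 CPM in the WT mice, without overlap (-1.34, SE 0.30, FDR = 0.0357 by limma). Cavin3, a coat protein of caveolae, Ppp1r14a, an inhibitor of myosin phosphatase, and Nbn, of the DNA break repair complex, were at log2 fold changes of -1.04 (SE 0.22), -1.23 (SE 0.28) and -0.86 (SE 0.19). Spsb3, Naa50, an N-terminal acetyltransferase gene, Ap1s2, a clathrin adaptor subunit gene, Eid2b and Clba1 had -0.87, -0.59, -1.18, -1.24 and -1.23, and FDRs of these 8 genes were 0.0329 to 0.0457 by limma.

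**Figure D3:**
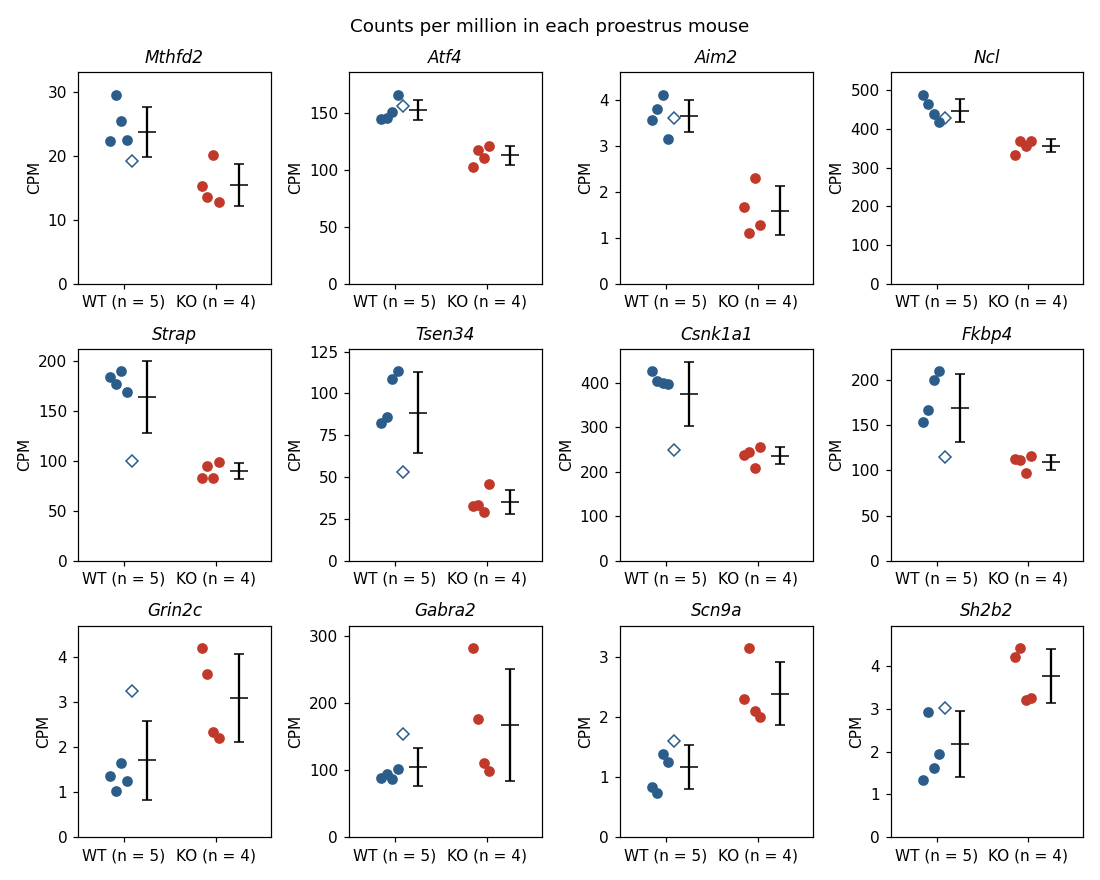
CPM of 12 DEGs in each proestrus mouse, with WT mice in blue, KO mice in red, WT 8_2 as an open diamond and the black bar and whiskers giving the mean and SD of each group. WT 8_2 sits with the other WT mice in Atf4, Aim2 and Ncl and near the KO mice in Strap, Csnk1a1, Fkbp4 and Grin2c.

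The levels that separated the 2 proestrus groups in this set also occurred within other groups. Strap ran from 72.4 to 158 CPM among WT mice in diestrus, from 80.4 to 180 CPM in WT males and from 84.1 to 218 CPM in KO males. Tsen34 ran from 25.4 to 82.8, from 25.8 to 99.2 and from 30.1 to 104 CPM in the same groups. For 37 of the 42 lower DEGs and 5 of the 9 higher DEGs, the range of at least 1 of the other 8 groups took in both proestrus means. These counts cover all DEGs, with Atf4 and Mthfd2 among the 37 through WT diestrus mice. The share over all genes tested was not computed, and larger groups and smaller differences make such a range more likely. KO males took in both means for 26 of the lower DEGs, WT diestrus mice for 20, WT males for 18, and KO diestrus mice for 0. Outside proestrus, Strap was at 72.4 to 180 CPM in the 10 WT mice with parents of the Cnih3 line (median 93.0) and at 69.6 to 158 CPM in the 12 WT mice from the separate mating (median 95.2). For the lower DEGs the median log2 fold change of WT proestrus mice over the mean of the other WT stages was 0.47, and that of KO proestrus mice over the other KO stages was -0.23, where each shares its proestrus mice with the comparison of genotypes.

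**Figure D4:**
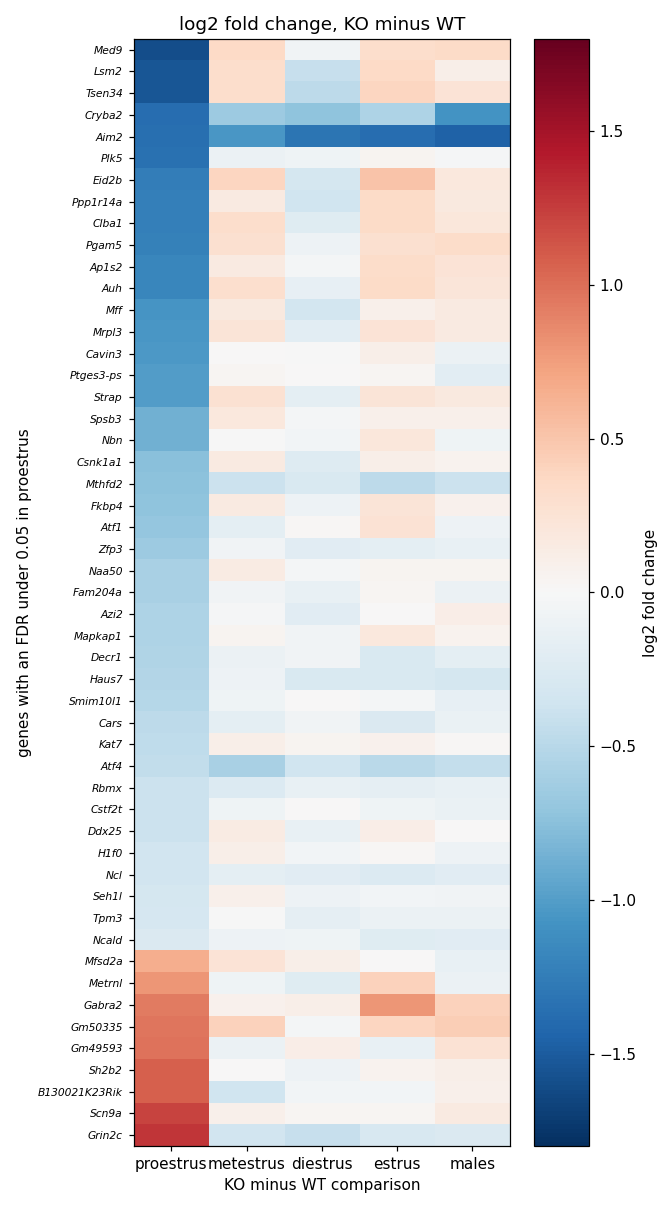
log2 fold change, KO minus WT, of the 51 DEGs of proestrus (rows, by their value in proestrus) in proestrus, metestrus, diestrus, estrus and males (columns), with blue for lower and red for higher in KO. Atf4, Mthfd2, Aim2 and Cryba2 are blue in every column, and Strap, Tsen34 and Med9 are blue in proestrus and pale red in metestrus, estrus and males.

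The 9 higher DEGs included the receptor subunit genes Grin2c and Gabra2 and the sodium channel gene Scn9a. Grin2c (ENSMUSG00000020734, chr11:115249169-115267243, GRCm38, minus strand), the NMDA receptor subunit GluN2C, was at 4.19, 3.62, 2.33 and 2.20 CPM in the KO mice and at 1.03, 1.35, 1.64, 1.26 and 3.23 CPM in the WT mice. The KO mice were above every WT mouse except WT 8_2. The log2 fold change was 1.29 (SE 0.28, FDR = 0.0357 by limma), compared with -0.35, -0.41, -0.29 and -0.26 in metestrus, diestrus, estrus and males. The other 5 NMDA receptor genes tested were no DEGs, with log2 fold changes of -0.32 to 0.21, and the 2 most abundant ones in CPM, Grin2b and Grin2a, had 0.14 (SE 0.14) and 0.12 (SE 0.14).

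Gabra2, the alpha 2 subunit of the GABA-A receptor, was at 281, 176, 111 and 98.9 CPM in the KO mice and at 94.4, 89.1, 86.5, 102 and 154 CPM in the WT mice. The groups overlapped, and the KO mean rested on 12_4 and 12_5, which share a first number. Both were also above 14_1 and 14_2 for Grin2c, Scn9a and Sh2b2, but not for the other higher DEGs. The log2 fold change was 0.93 (SE 0.22, FDR = 0.0427 by limma). It was 0.80 (FDR = 0.0440 by limma) in estrus and 0.08, 0.10 and 0.42 in metestrus, diestrus and males, and the highest KO mouse in estrus was at 331 CPM. Of the 12 GABA-A receptor genes tested Gabra2 alone was a DEG, and the median log2 fold change was 0.12.

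Scn9a, the voltage-gated sodium channel Nav1.7 known from pain neurons, was at 2.31, 3.15, 2.11 and 2.00 CPM in the KO mice and at 0.743, 0.833, 1.39, 1.26 and 1.602 CPM in the WT mice, without overlap (log2 fold change 1.21, SE 0.27, FDR = 0.0357 by limma). Sh2b2, an adaptor of insulin and growth factor receptors, was at 4.20, 4.41, 3.21 and 3.24 CPM in the KO mice and 2.93, 1.34, 1.62, 1.95 and 3.02 CPM in the WT mice (1.07, SE 0.22, FDR = 0.0320 by limma). Mfsd2a, the transporter that brings omega-3 lipids across the blood-brain barrier, was at 10.4, 8.81, 9.20 and 11.3 CPM in the KO mice and 5.41, 6.59, 5.72, 6.68 and 9.72 CPM in the WT mice (0.66, SE 0.15, FDR = 0.0369 by limma). Its groups overlapped through WT 8_2, as did those of Metrnl, a secreted meteorin-like protein (0.79, SE 0.18). The remaining 3 were the unannotated transcripts B130021K23Rik, Gm49593 and Gm50335, of which the last is annotated as antisense, so that without strand its reads may not be told apart from those of the gene opposite.

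Whether the genotype difference in proestrus differed from that of the other stages was tested as an interaction against the mean of metestrus, diestrus and estrus. By limma 63 genes (0.390% of the genes tested) had an FDR under 0.05, of which 45 had a lower and 18 a higher value in proestrus, and 21 of the 63 were also DEGs of proestrus. All 63 had an FDR of 0.0494 to 0.0496 by limma, just under the threshold. Grin2c had the smallest p, with an interaction of 1.64 (SE 0.32, FDR = 0.0494 by limma). The next were Fam13c, Zfp526, Ptges3-ps and B130021K23Rik, at -0.64 (SE 0.13), -1.05 (SE 0.23), -1.04 (SE 0.23) and 1.22 (SE 0.27), all at an FDR of 0.0494. For Zfp526, a zinc finger gene, KO minus WT was -0.62 in proestrus and 0.55, 0.41 and 0.33 in metestrus, diestrus and estrus. The edgeR test called 0 genes in the interaction (896 at an unadjusted p under 0.05), DESeq2 0 (945) and limma without quality weights 0 (811). Without KO 12_4 or without WT 20_2 limma called 0 as well (2795 and 2380 at an unadjusted p under 0.05), and without KO 14_1, KO 14_2 or WT 2_3 it called 2, 1 and 1. It called 32 without KO 12_5, 385 without WT 4_1, 1117 without WT 5_4 and 724 without WT 8_2.

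Gene groups tied to the known role of CNIH3 and to the estrous cycle are given by their counts, which at 0.315% DEGs over all genes tested could hold few DEGs by their size. At an unadjusted p under 0.05, 5.82% of all genes tested were higher and 7.87% lower. Of the 23 genes for AMPA receptor subunits and auxiliary proteins, 0 were DEGs in limma, 4 were higher and 0 lower at an unadjusted p under 0.05, and the median log2 fold change was 0.13. Gria1 and Gria2, the GluA1 and GluA2 subunits, were at log2 fold changes of 0.08 (SE 0.10) and 0.15 (SE 0.14). Cnih2, the closest relative with the same role in the hippocampus, was at a mean of 141 CPM in KO and 140 CPM in WT mice (0.17, SE 0.16, FDR = 0.670 by limma). Of the 33 potassium channel genes 0 were DEGs in limma, with 7 higher and 0 lower at an unadjusted p under 0.05 and a median log2 fold change of 0.14. Of 19 postsynaptic scaffold and CaMKII genes 0 were DEGs in limma, with 2 higher and 2 lower at an unadjusted p under 0.05 and a median of 0.04.

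Of the 10 steroid hormone receptor genes tested 0 were DEGs in limma (1 higher and 1 lower at an unadjusted p under 0.05), and their median log2 fold change was -0.11. Esr1, estrogen receptor alpha, had -0.12 (SE 0.27), Pgr, the progesterone receptor, -0.28 (SE 0.12, FDR = 0.285 by limma), and Nr3c1, the glucocorticoid receptor, -0.14 (SE 0.09). Of the 10 neurosteroid enzyme genes tested 0 were DEGs in limma and 1, Srd5a3 (-0.69, SE 0.28), was lower at an unadjusted p under 0.05. The 15 genes of the glucocorticoid and FoxO response had a median log2 fold change of 0.27 with 0 DEGs in limma and 4 higher and 1 lower at an unadjusted p under 0.05. The 20 immediate early genes, which respond to neuronal activity, had a median of 0.08 with 0 DEGs in limma and 1, Jun (-0.76, SE 0.29, chosen after its value was seen), lower at an unadjusted p under 0.05. Of the 15 genes that the study names for other comparisons, 0 were DEGs in limma here, with Xbp1, a factor of the unfolded protein response, at -0.99 (SE 0.33, FDR = 0.179 by limma) and Otx2, a choroid plexus factor, at -1.14 (SE 0.73).

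Over the 39 lists as a whole, 6 of the 1002 genes tested were DEGs by limma, against 0.315% of all genes, and 34 lists held 0. Those 34 lists held 814 genes, of which 72 were higher and 35 lower at an unadjusted p under 0.05, against 5.82% higher and 7.87% lower over all genes tested, and their median log2 fold changes ran from -0.93 for choroid plexus to 0.77 for pituitary. All 13 choroid plexus genes had log2 fold changes below 0, while their summed levels overlapped widely between the groups.

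**Figure D5:**
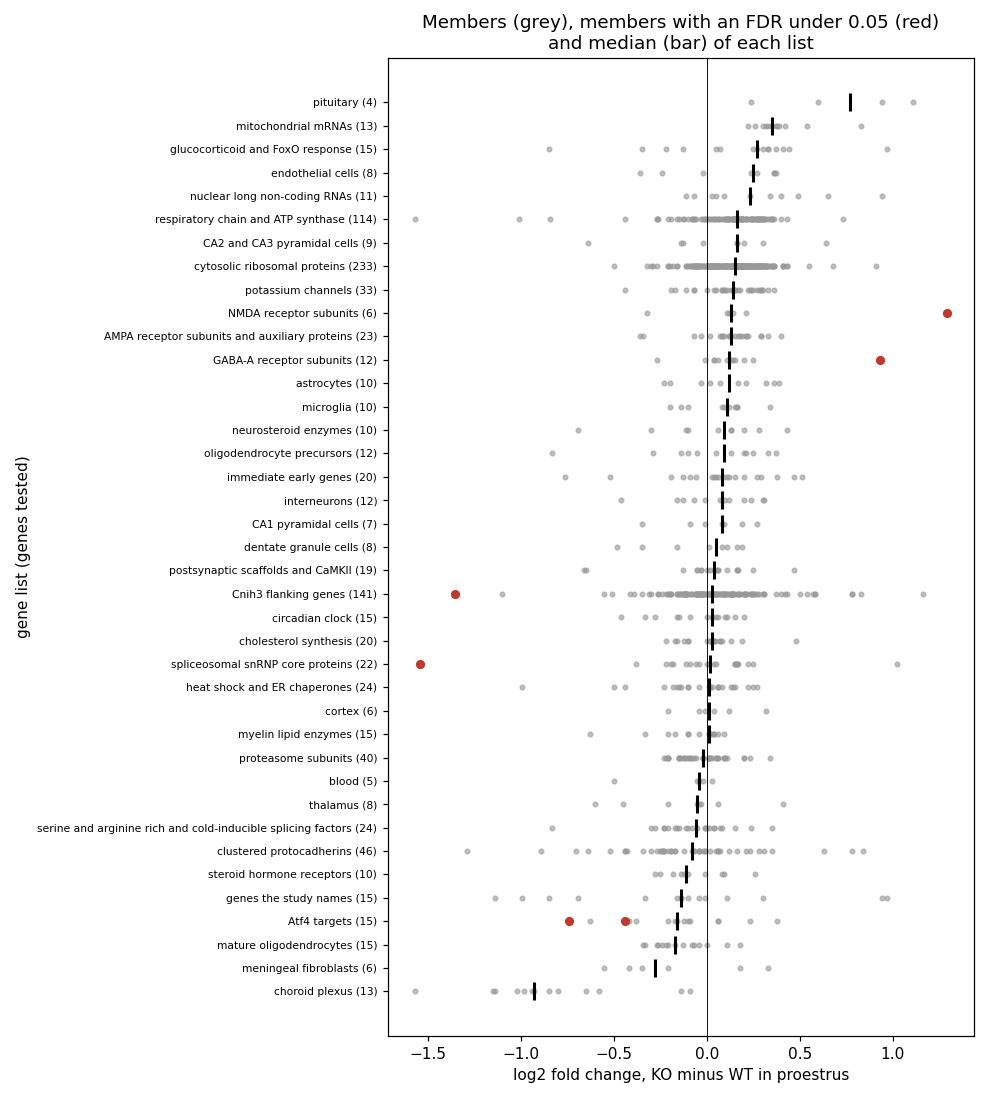
log2 fold change, KO minus WT in proestrus, of the members of 39 gene lists (grey points, red where the FDR was under 0.05), with a black bar at the median of each list and the number of genes tested in brackets. Red points occur in 5 lists, and the medians run from -0.93 for choroid plexus to 0.77 for pituitary.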

How the data were processed

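The authors made 1 library of dorsal hippocampal RNA for each mouse. Per the labels and the study's methods, polyadenylated RNA was copied with a SMARTer kit, reads were aligned to GRCm38 with STAR 2.7.9a and counted per gene with featureCounts 2.0.3. The authors deposited raw gene counts, from which every value was computed, and a table of log2 CPM, used as a check only: over 16164 genes the log2 CPM computed here differed from the deposited log2 CPM by at most 4.97e-14. Deposited CPM and transcript tables were not used here. In the counts, 287 of 55774 lines repeat a gene, and 1 column matches no mouse and was left out. Strand use in counting is not given in the sources used here.

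The filter asked for more than 1 CPM in 10 or more libraries, and 5 ribosomal RNA genes were dropped. TMM factors came from edgeR 4.0.16. Weights for genes and samples (voomWithQualityWeights) and moderated tests came from limma 3.58.1 in R 4.3.3, in 1 model of the 10 groups of all 55 mice, after the study's methods. FDRs follow Benjamini and Hochberg over all genes tested, with a threshold of 0.05. Lists are described by counts and medians only. Ribosomal protein, respiratory chain, proteasome and protocadherin lists were taken by symbol and include pseudogenes. Genes named are Cnih3, the 15 DEGs in each direction with the smallest FDR, the 5 largest log2 fold changes in each direction, list members that are DEGs, up to 4 members of a list with the highest mean level, genes the study names, and the 5 smallest FDRs of the interaction, with the other DEGs and Cnih2, Esr1, Pgr, Ddit3, Chac1, Nupr1 and Jun added after their values were seen. Members, lists and tests were chosen with earlier results of these data known. Alternatives used edgeR's quasi-likelihood test, DESeq2 1.42.0, other filters, weights, scaling, covariates and subsets of mice, and each proestrus mouse left out. A surrogate variable (sva 3.50.0) was added after the data were seen. Parents and RNA integrity came from the study's sample table. The proestrus means rest on 4 and 5 mice. The spread between mice was estimated over all 10 groups with quality weights, at 53.2 moderated degrees of freedom. Each p-value of limma sets the difference in means against that spread.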

Additional observations from a re-analysis of the deposited data

Results flagged for a closer look

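Within the KO or WT proestrus mice, 1 library stood far from the rest of its group in 15 of 106 groups examined (51 DEGs, Cnih3 and total counts, each in both genotypes), by the gap to the nearest mouse divided by the range of the group. Chance flags about 1 in 20 groups, but that share does not apply here, since the DEGs were called with a low weight for WT 8_2 and their levels move together. In 14 of them the library was WT 8_2. It was the lowest WT mouse for Ptges3-ps (5.00 CPM), Strap (100.1 CPM), Azi2 (37.6 CPM), Tpm3 (249 CPM), Ap1s2 (36.7 CPM), Csnk1a1 (248 CPM), Smim10l1 (160.3 CPM), Ncald (715 CPM), Mrpl3 (48.5 CPM), Atf1 (7.79 CPM) and Pgam5 (45.8 CPM). It was the highest WT mouse for Grin2c (3.23 CPM), Metrnl (6.63 CPM) and Gabra2 (154 CPM). In KO mice the case was H1f0, where 14_2 was highest at 81.4 CPM.

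The difference between KO and WT mice differed between proestrus and the mean of metestrus, diestrus and estrus, by the interaction test in limma with an FDR under 0.05, for 23 of the 215 named genes, against 63 of all 16168 genes tested (0.390%). The 23 say nothing about how often this occurs, since 21 of them are DEGs of the same proestrus mice and the others were named for the interaction itself. The difference was more positive in proestrus for Grin2c (1.64), B130021K23Rik (1.22) and Sh2b2 (1.08), as the log2 fold change in proestrus minus that of the other stages. It was more negative for Fam13c (-0.64), Zfp526 (-1.05), Ptges3-ps (-1.04), Spsb3 (-0.95), Cavin3 (-1.08), Naa50 (-0.65), Strap (-1.10), Fkbp4 (-0.82), Eid2b (-1.44), Nbn (-0.91), Kat7 (-0.54), Ap1s2 (-1.32), Mapkap1 (-0.60), Auh (-1.34), H1f0 (-0.38), Ddx25 (-0.42), Pgam5 (-1.38), Clba1 (-1.38), Med9 (-1.79) and Ppp1r14a (-1.27). Without quality weights no gene passed this test in limma (811 at an unadjusted p under 0.05), nor in edgeR (896) or DESeq2 (945).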

How the results depend on the processing

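The 51 DEGs of proestrus and the 63 genes of the interaction depended on the processing, and the cause was not tested. For KO against WT the count was 0 in edgeR, DESeq2 (2 genes without an adjusted p), limma without quality weights and limma with age as a covariate, 4 without a filter on low counts (0 of the 51 among them), 5 with the mature oligodendrocyte mean as a covariate, 156 with only the 9 proestrus mice, 130 with only WT mice from the separate mating, 825 with only libraries of RNA integrity 8 or more, and 123 with a surrogate variable, chosen after seeing the data. It was 1644 with only mice from parents of the Cnih3 line, of which 2 were among the 51, where WT 8_2 was the lone WT mouse and was assumed to vary like the other groups. Leaving out 1 mouse gave 0 to 330. The setting with only WT proestrus mice from the separate mating dropped WT 8_2 alone, so it is the same fit as the one without WT 8_2. For the interaction the count was 0 in edgeR, DESeq2, limma without weights, with age and with the oligodendrocyte mean, 2 without a filter, 158 with over 1 CPM in at least 4 of the 9 libraries, 133 under 16 weeks, 724 with only WT mice from the separate mating, 2124 with libraries of RNA integrity 8 or more, 29 with the choroid plexus mean and 362 with the surrogate variable. With only mice from parents of the Cnih3 line it was 72 (66 above and 6 below 0), of which 0 were among the 63. Leaving out 1 mouse gave 0 to 1117. With only mice from parents of the Cnih3 line, and so WT 8_2 alone as WT, 13 DEGs had log2 fold changes of the opposite sign, none with an FDR under 0.05 in limma, at 0.12 for Naa50, 0.10 for Tpm3, -0.01 for Mfsd2a, 0.23 for Rbmx, 0.02 for Ap1s2, 0.55 for Kat7, -0.29 for Metrnl, 0.12 for Azi2, 0.21 for Ptges3-ps, 0.20 for Cstf2t, 0.35 for Smim10l1, 0.13 for Seh1l and -0.10 for Gm50335. Over all alternatives, the 51 DEGs kept their direction and call in 616 gene-by-setting values and their direction only in 646. In these totals the fit without WT 8_2 is counted under both of its settings. Cnih3 stayed below 0, at -0.70 to -0.03, and passed no test. A random effect for mice that share their first number left both counts as they were, at 51 and 63. No paired analysis was possible because the replicate numbers were given in accession order and pair no mice.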
